A study of Mus musculus with 12 samples.

Results

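The 36 genes described here were listed as interferon response and antigen processing genes of the mouse. Each was represented by its brightest probe set (highest mean over the arrays) among those annotated to that gene alone, and 35 of the 36 had one. The exception was Isg15, whose probe set is annotated to a further gene as well. The arrays represented 18194 genes in this way, and 12673 of them, among them 28 of the 35 genes described, had a mean signal of at least 1.45 log2 units (the 40th percentile of probe set means) and were tested. Ifit1, Dhx58, Oas3, Oasl2, Mx1, Nlrc5 and Gbp2 lay below that level and were not tested.

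The arrays measured total RNA of I/11 cells, a mouse pro-erythroblast line that grows as expanding erythroid progenitors in serum-free medium with erythropoietin, stem cell factor and dexamethasone. Cells had been stably infected with pLKO lentiviral vectors that carry a puromycin resistance gene and 1 of 3 hairpins. The lines sh14 and sh133 carried different hairpins against Plcg1, the gene of phospholipase C gamma 1, and the line scr carried a scrambled hairpin. Each line was hybridised at 1, 6, 12 and 22 h, with 1 array for each line and time, which gives 4 arrays per line and 12 in all. The medium, the vector and the selection marker were shared by all 3 lines. Neither the event from which the hours count, nor whether a line is a clone, nor whether the arrays of a line come from separate cultures is stated, so p-values measure only the spread between these arrays, which may be technical.

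Interferons bind receptors at the cell surface, and the receptors' JAK kinases activate STAT transcription factors. Type I interferons act largely through STAT2 and IRF9, which bind the interferon-stimulated response element (ISRE) of antiviral genes. Interferon gamma acts through the gamma-activated site (GAS) and through IRF1, and raises the genes of antigen processing, in which the immunoproteasome cuts peptides, the TAP transporter carries them into the endoplasmic reticulum and tapasin loads them onto class I molecules. Interferon gamma is also known to restrain red cell formation during inflammation.

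The targeted gene Plcg1 had log2 signals between 3.86 and 4.30 in sh14, between 4.35 and 4.53 in sh133 and between 4.31 and 4.74 in scr. Its fitted difference from scr was -0.36 in sh14 (adjusted p = 0.456, from a limma model of line, time and date string of the array title with p-values adjusted over all tested genes) and -0.11 in sh133 (adjusted p = 0.767), so neither passed the test. Array medians lay between 1.84 and 1.92, and pairwise correlations of arrays between 0.983 and 0.997. The array titles carry 2 date strings, whose meaning the labels do not give. The first is on all 4 sh14 arrays and on sh133 at 6 and 12 h, and the second is on all 4 scr arrays and on sh133 at 1 and 22 h. No scr array shares a date string with sh14, so sh14 against scr differences fitted with a date term are bridged through sh133. Comparisons of ranges and of single arrays below use raw signals without that term. Of 9 erythroid genes with a probe set, 8 lay above the highest array median on at least 1 array, and their mean signal was 6.46 to 7.30 in sh14, 6.92 to 7.57 in sh133 and 6.88 to 7.64 in scr. The exception was the globin gene Hba-a1. Any probe set annotated to it together with another gene was not used, so this low signal does not give the level of globin RNA.

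The members were spread over the signal range of the arrays. Of the 35 genes, 7 lay below the median of their own array on all 12 arrays, 21 lay above it on all 12, and 7 lay on both sides. Irf7, a transcription factor that amplifies type I interferon production, was among the 7 below, with 1.75 to 1.89 in sh14, 1.42 to 1.59 in sh133 and 1.49 to 1.59 in scr. The others below were Ifit3 (a relative of Ifit1), Dhx58 (a regulator of RNA sensing), Oas3 (an oligoadenylate synthetase) and Oasl2 (a relative of that family). The dynamin-like GTPase gene Mx1 and Nlrc5, the transactivator of class I genes, were below as well. Mx1 had 0.67 to 1.09 in sh14, 0.59 to 1.01 in sh133 and 0.70 to 1.06 in scr. At the other end, B2m, the light chain of class I molecules, had 9.71 to 9.82 in sh14, 9.11 to 9.50 in sh133 and 9.17 to 10.02 in scr. Since signals of different probe sets cannot be set against each other as amounts, these values say only which probe sets stood above the bulk of their array.

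Promoter sequence from RefSeq (assembly GRCm38.p6), 250 bases before to 50 after a gene's start, was at hand for 28 of the 36 genes. The letters GAAANNGAAA, the core of the ISRE, were searched on both strands and were found in 13 of the 28: Stat2, Isg15, Ifit1, Ifit3, Ifih1, Ddx58, Oas1a, Oas3, Rsad2, Bst2, B2m, Gbp2 and Gbp3. They occur in 3.99% of the 27025 genes with such a window. The letters TTCNNNGAA of the GAS, which read the same on both strands, were found in Irf1, Ifit2, Oas1a, Bst2, Psmb8 and Ifi35, against 9.55% of genes. Stretches of 120 bases are shown for 3 genes with the ISRE core that were higher in sh14 than in sh133 (Oas1a, Bst2 and Gbp3). The other members that passed as higher there (Xaf1, Irf9, Samd9l, Usp18, Tapbp and Psmb9) had no ISRE core match, or no window. Stretches are also shown for Psmb8, which was highest in sh133, and for Ifit1. The Ifit1 stretch holds the ISRE core at 2 places, although its probe set stayed below the filter. The 225 bases between the oppositely directed starts of Psmb9 and Tap1 hold neither set of letters. Capitals mark the matches, which overlap each other in Oas1a, Bst2 and Gbp3, and a match is a description of letters only.
Oas1a, chr5:120907526-120907645, minus strand: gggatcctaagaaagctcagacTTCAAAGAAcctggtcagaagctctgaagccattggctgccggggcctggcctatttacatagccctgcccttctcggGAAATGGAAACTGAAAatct
Bst2, chr8:71537513-71537632, minus strand: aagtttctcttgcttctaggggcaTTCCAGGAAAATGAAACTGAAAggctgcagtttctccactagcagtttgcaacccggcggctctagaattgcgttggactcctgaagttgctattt
Gbp3, chr3:142559924-142560043, plus strand: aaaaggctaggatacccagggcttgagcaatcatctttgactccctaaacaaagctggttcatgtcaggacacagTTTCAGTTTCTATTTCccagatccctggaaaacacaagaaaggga
Psmb8, chr17:34198075-34198194, plus strand: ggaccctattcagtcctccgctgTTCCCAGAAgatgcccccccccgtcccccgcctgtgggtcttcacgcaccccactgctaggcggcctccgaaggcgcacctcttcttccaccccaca
Ifit1, chr19:34640769-34640888, plus strand: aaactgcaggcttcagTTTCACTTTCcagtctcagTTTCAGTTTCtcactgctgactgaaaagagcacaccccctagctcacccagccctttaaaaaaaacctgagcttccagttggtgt
Psmb9 and Tap1, chr17:34187331-34187555, plus strand: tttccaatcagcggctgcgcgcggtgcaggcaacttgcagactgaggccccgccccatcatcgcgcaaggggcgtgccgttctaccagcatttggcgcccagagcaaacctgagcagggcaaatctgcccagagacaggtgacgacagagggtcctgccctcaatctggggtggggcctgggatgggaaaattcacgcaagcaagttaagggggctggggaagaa

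Both sets of letters were present in the Oas1a and Bst2 stretches. Ifit1, with the ISRE core at 2 places, had 1.60, 1.64, 1.97 and 1.58 in sh14, 1.03, 1.28, 1.42 and 1.28 in sh133, and 1.59, 1.17, 1.25 and 1.45 in scr, all near background.

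Between both Plcg1 hairpin lines and scr, the antiviral genes Oas1a and Xaf1 and the immunoproteasome gene Psmb9 rose, and no member fell. That is 3 of the 28 tested members at an adjusted p below 0.05, while 2.18% of the 12673 tested genes passed in either direction and 1.14% passed as higher. The median difference of the 28 members was 0.28 log2 units, against 0.01 for all tested genes, and 21 of the 28 differences were above 0. At an unadjusted p below 0.05 there were 8 members, all higher, and 14.7% of all tested genes in either direction. By role, 2 of 12 tested antiviral effectors and 1 of 3 immunoproteasome genes passed, and 0 of 4 transcription factors, 2 sensors, 3 regulators and 4 peptide loading genes did. Differences that did not pass lay between -0.27 for Trim25 and 0.92 for Tap1.

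Oas1a encodes an oligoadenylate synthetase, an enzyme that senses double-stranded RNA and activates RNase L. It is on chromosome 5, as are its relatives Oas2, Oas3, Oasl1 and Oasl2. Oas1a had log2 signals of 5.65, 5.49, 5.51 and 5.75 in sh14 at 1, 6, 12 and 22 h, of 5.13, 5.06, 5.12 and 5.14 in sh133, and of 4.22, 3.93, 3.99 and 4.17 in scr. The 3 lines did not overlap, with sh14 highest and scr lowest at every time, and its change over time did not pass. The hairpin lines together were 1.15 ± 0.11 log2 units (SE) or 2.22-fold above scr (limma adjusted p = 0.00126). Mice carry several close copies of Oas1a, and whether its probe set tells them apart was not tested. Of its tested relatives, Oas2 differed by 0.27 in sh14 and 0.09 in sh133 from scr, and neither these nor the differences of Oasl1 passed.

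Psmb9, a catalytic subunit of the immunoproteasome on chromosome 17, had 5.07, 4.65, 5.00 and 4.96 in sh14 at the 4 times, 4.65, 4.11, 4.34 and 4.30 in sh133, and 3.91, 3.20, 3.67 and 3.28 in scr. Every hairpin array was above every scr array, and in all 3 lines the 1 h array was the highest. The difference of the hairpin lines was 1.18 ± 0.15 or 2.26-fold (adjusted p = 0.00384).

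Xaf1, on chromosome 11, encodes a partner of the apoptosis inhibitor XIAP. Its signals were 3.55, 4.45, 4.31 and 4.45 in sh14, 2.24, 2.72, 2.89 and 2.74 in sh133, and 1.98, 1.56, 1.68 and 1.75 in scr. The lines did not overlap here either, and 3 of the 4 scr arrays were below the median of their array, so its level in scr is close to background. The hairpin lines were 1.49 ± 0.28 or 2.81-fold above scr (adjusted p = 0.0254). This call was lost in 8 of the 12 fits that left out 1 array (adjusted p up to 0.154) and when the probe sets of a gene were averaged (0.77, adjusted p = 0.0504). The second Xaf1 probe set averaged only 1.23 over the arrays and differed by 0.05.

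Oas1a, Xaf1 and Psmb9 were also the only members for which all 8 hairpin arrays lay above all 4 scr arrays, which held for 2.12% of all tested genes. Tap1, a subunit of the peptide transporter whose gene neighbours Psmb9, came close without passing. It had 4.42, 4.54, 4.51 and 4.63 in sh14, 4.30, 3.77, 4.00 and 3.67 in sh133, and 3.84, 3.23, 3.30 and 2.97 in scr. At each time sh14 was highest and scr lowest, although the sh133 arrays at 6 and 22 h lay below the scr array at 1 h. The difference of 0.92 ± 0.23 had an adjusted p of 0.0801. Its other 3 probe sets, with means between 0.51 and 1.81, differed by -0.01, -0.25 and -0.26.

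**Figure D1:**
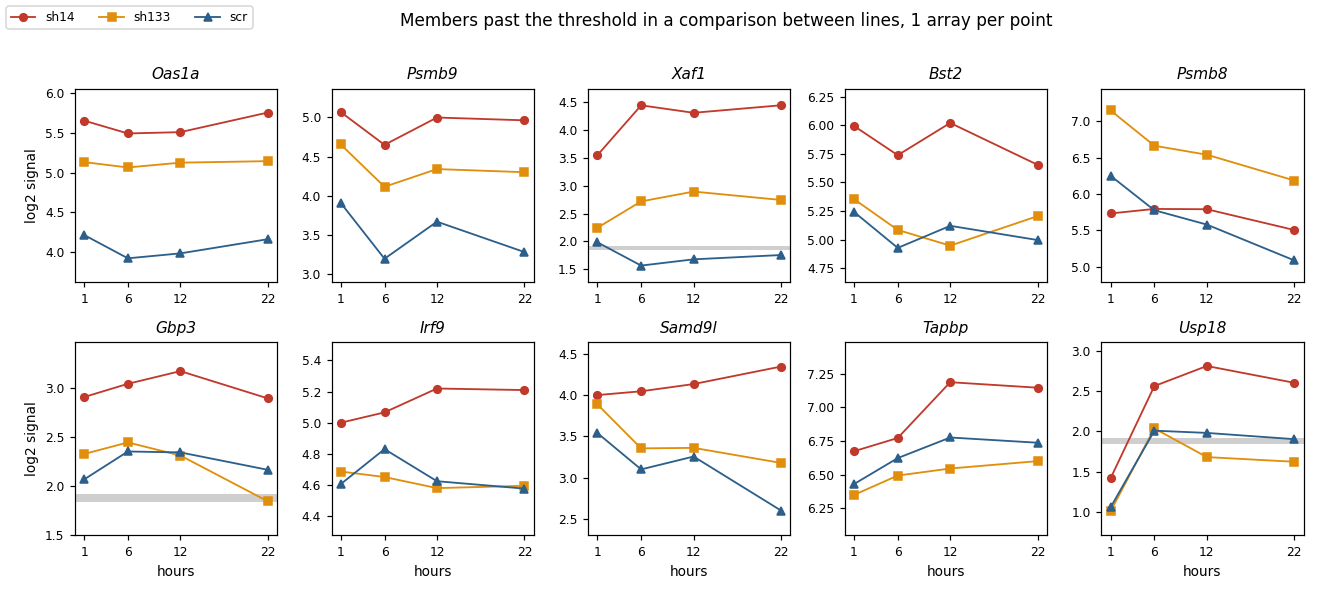
Log2 signal (vertical axes, each panel on its own scale) against hours (horizontal axes) for the 10 members that passed the threshold in sh14 against sh133, which include all that passed against scr; each point is 1 array, and the grey band is the range of array medians, 1.84 to 1.92. The 3 lines are fully separated for Oas1a and Xaf1, sh14 stands apart from overlapping sh133 and scr arrays for Bst2, Gbp3 and Irf9, and sh133 is highest for Psmb8.

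Taken line by line, sh14 was higher than scr for 4 of the 28 members, where 3.06% of all tested genes passed in either direction and 1.5% as higher. These were Xaf1 (2.20 ± 0.36, adjusted p = 0.0111), Psmb9 (1.48 ± 0.19, adjusted p = 0.0033), Oas1a (1.35 ± 0.14, adjusted p = 0.0016) and Bst2 (1.02 ± 0.18, adjusted p = 0.0163). The calls of Xaf1 and Bst2 were each lost in 5 of the 12 fits that left out 1 array. Bst2 encodes tetherin, which holds budding virus at the cell surface. In raw signals, without the date term, the ranges of sh14 and scr were separate for 9 members, all with sh14 above. Of tested genes 9.24% lay above and 8.42% below in this way. The 9 were Irf7, Irf9, Oas1a, Bst2, Xaf1, Psmb9, Tap1, Gbp3 and Samd9l.

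For sh133 against scr, 3 members rose, where 4.91% of tested genes passed in either direction and 2.45% as higher: Oas1a (0.95 ± 0.10, adjusted p = 0.0006), Psmb9 (0.88 ± 0.13, adjusted p = 0.00389) and Psmb8 (1.04 ± 0.18, adjusted p = 0.00914). Psmb8 encodes another immunoproteasome subunit. Xaf1 did not pass in this line (0.78, adjusted p = 0.0979). The ranges were separate, with sh133 above, for Ddx58, Oas1a, Xaf1 and Psmb9, against 6.3% of tested genes. Ddx58, which encodes the RNA sensor RIG-I, had 2.37, 2.40, 2.75 and 2.51 in sh133 and 2.35, 2.18, 2.29 and 2.27 in scr, and its fitted difference was 0.11. At 1 and 22 h sh133 and scr share a date string. The same 3 genes passed in a fit to the 6 arrays of that string, where 2.0% of tested genes did: Oas1a (0.95, adjusted p = 0.0172), Psmb9 (0.88, adjusted p = 0.0278) and Psmb8 (1.00, adjusted p = 0.0146). Only the arrays at 1 and 22 h inform this line difference, and very few residual degrees of freedom remain. Its arrays are also in the whole model, so that fit is no independent check. The comparisons of sh14 and of sh133 with scr use the same scr arrays, so their shared genes are not independent findings.

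**Figure D2:**
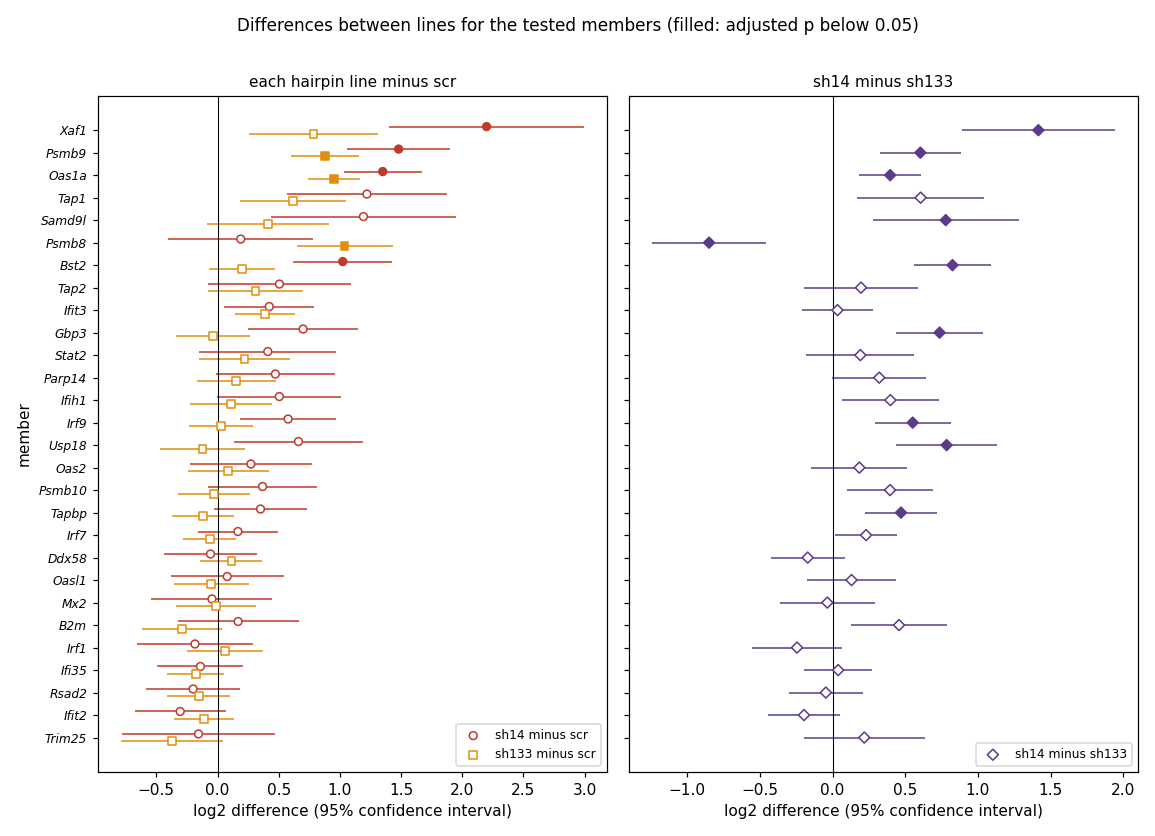
Fitted log2 difference between lines (horizontal axes) for each of the 28 tested members (vertical axis), with 95% confidence intervals; the left panel sets sh14 and sh133 against scr, the right panel sets sh14 against sh133, and filled symbols passed an adjusted p of 0.05. On the left Xaf1, Psmb9 and Oas1a are at the top with sh14 to the right of sh133, and on the right 9 members are filled above 0 and Psmb8 is filled below 0.

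More members passed between the 2 hairpin lines than between either line and scr, and the same held for all tested genes. Of these, 3.06% passed in sh14 against scr and 4.91% in sh133 against scr. In sh14 against sh133, 9 of the 28 members rose and 1 fell, where 14.6% of all tested genes passed, 7.54% as higher and 7.11% as lower. The median difference of the members was 0.28, against 0.00 for all tested genes, and 22 of 28 were above 0. In sh14 against scr the member median was larger, at 0.39. The median standard error over all tested genes was also larger there, 0.20 against 0.13 for sh14 against sh133. The counts of passed genes therefore do not rank the sizes of these differences. Without the date term 23.7% of tested genes passed in sh14 against scr and 24.7% in sh14 against sh133. The 4 sh14 arrays lay above the 4 sh133 arrays for 12 members (9.21% of tested genes) and below them for Psmb8 alone (10.7% of tested genes).

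Among the transcription factors, Irf9, the DNA-binding partner of STAT2, was the 1 of 4 tested that rose. It had 5.00, 5.07, 5.22 and 5.21 in sh14, against 4.69, 4.65, 4.58 and 4.60 in sh133, and the difference was 0.55 ± 0.12 (adjusted p = 0.0119). Its scr arrays, at 4.61, 4.83, 4.63 and 4.58, overlapped those of sh133. Stat2, Irf1 and Irf7 did not pass. The sensor gene Ifih1, which encodes MDA5, did not pass either, although its sh14 arrays (6.29, 5.90, 5.98 and 5.97) were all above its sh133 arrays (5.66, 5.39, 5.54 and 5.42).

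Of the 12 tested antiviral effectors, 5 rose in sh14 against sh133: Xaf1 (1.42 ± 0.24, adjusted p = 0.00361), Bst2 (0.82 ± 0.12, adjusted p = 0.00175), Samd9l (0.78 ± 0.23, adjusted p = 0.0438), Gbp3 (0.74 ± 0.13, adjusted p = 0.00567) and Oas1a (0.40 ± 0.10, adjusted p = 0.0203). Bst2 had 5.99, 5.74, 6.02 and 5.65 in sh14, 5.35, 5.08, 4.95 and 5.21 in sh133, and 5.24, 4.93, 5.12 and 5.00 in scr. Gbp3, a guanylate-binding protein gene, had 2.91, 3.05, 3.18 and 2.90 in sh14, 2.33, 2.45, 2.32 and 1.85 in sh133, and 2.07, 2.36, 2.35 and 2.17 in scr. For both genes the sh14 arrays stood apart, and those of sh133 and scr overlapped. Samd9l, known as a growth-restraining gene of blood cells, had 4.00, 4.04, 4.13 and 4.34 in sh14, 3.89, 3.35, 3.36 and 3.18 in sh133, and 3.54, 3.10, 3.25 and 2.60 in scr. At 22 h the sh14 array was the highest of its line, and the sh133 and scr arrays were the lowest of theirs. The other effectors did not pass, among them Rsad2 (viperin, -0.05) and Mx2 (-0.04).

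Usp18, the protease that removes ISG15 from proteins and damps the type I receptor, was the 1 of 3 regulators that rose (0.78 ± 0.16, adjusted p = 0.00862). It had 1.42, 2.56, 2.81 and 2.60 in sh14, 1.02, 2.04, 1.68 and 1.63 in sh133, and 1.06, 2.01, 1.98 and 1.90 in scr. Within each line the 1 h array was the lowest and below the array median, so the lines overlapped across times although sh14 was highest at each time. In sh133, 3 of the 4 arrays were below the array median. The size of the sh14 against sh133 difference of Usp18 therefore depends on a level near background. Trim25, a ubiquitin ligase acting on RIG-I, and Ifi35 differed by 0.22 and 0.04 and did not pass.

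The immunoproteasome genes differed in opposite directions between the 2 hairpin lines. Psmb9 rose in sh14 against sh133 (0.60 ± 0.13, adjusted p = 0.0103), and Psmb8 fell by 0.85 ± 0.18 (adjusted p = 0.0106). Psmb8 had 5.73, 5.80, 5.79 and 5.51 in sh14, 7.15, 6.66, 6.54 and 6.19 in sh133, and 6.25, 5.78, 5.58 and 5.09 in scr. Every sh133 array of Psmb8 was above the scr array and the sh14 array of its time, and sh14 lay within the range of scr. The dim second probe set of Psmb8, with a mean of 0.92, differed by only 0.01 between sh14 and sh133. Psmb10, the remaining subunit, had 7.23, 7.27, 7.28 and 6.96 in sh14, against 6.96, 6.88, 6.83 and 6.55 in sh133. Its ranges were just separate (lowest 6.961 in sh14, highest 6.956 in sh133), but the difference of 0.40 did not pass.

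Of the 4 peptide loading and class I genes, Tapbp, which encodes tapasin, rose in sh14 against sh133 (0.47 ± 0.11, adjusted p = 0.0199). It had 6.67, 6.77, 7.19 and 7.15 in sh14, 6.35, 6.49, 6.55 and 6.60 in sh133, and 6.43, 6.62, 6.78 and 6.74 in scr. The second Tapbp probe set, with a mean of 3.10 and so above the filter, differed by only 0.21 ± 0.12. Tap1 differed by 0.61 (adjusted p = 0.066) and did not pass. B2m had 9.82, 9.71, 9.73 and 9.71 in sh14, 9.50, 9.28, 9.25 and 9.11 in sh133, and 10.02, 9.65, 9.46 and 9.17 in scr. Its sh14 arrays were above all sh133 arrays, and both B2m probe sets gave a difference of 0.46, which did not pass. Tap2, with 5.18, 5.35, 5.72 and 5.47 in sh14 and 5.76, 5.34, 5.26 and 5.26 in sh133, overlapped.

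**Figure D3:**
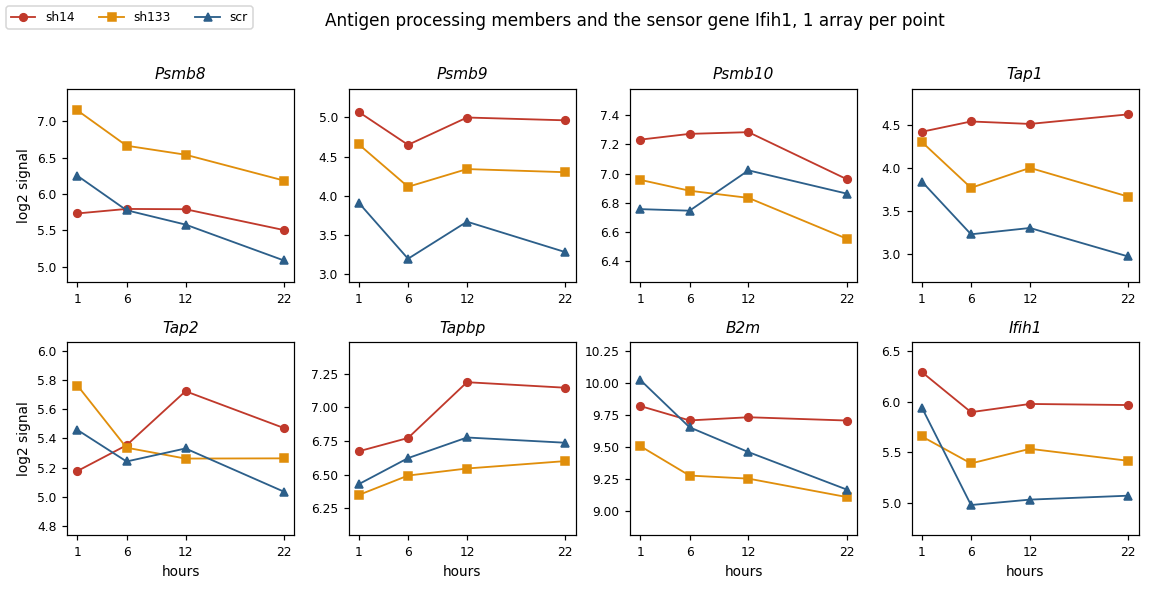
Log2 signal (vertical axes, each panel on its own scale) against hours for the 7 antigen processing members and the sensor gene Ifih1, with 1 array per point. Psmb9 and Tap1 run highest in sh14 and lowest in scr at every time, Psmb8 is highest in sh133, and B2m in scr is at 10.02 at 1 h and 9.17 at 22 h while sh14 stays between 9.71 and 9.82.

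At 6 and 12 h sh14 and sh133 share a date string. A fit to the 6 arrays of that string passed 13 members, against 18.7% of all tested genes. Only the arrays at 6 and 12 h inform its line difference, and very few residual degrees of freedom remain. Those arrays are also in the whole model, so the fit is no independent check. This fit gave Xaf1 1.57 (adjusted p = 0.00229), Bst2 0.86 (adjusted p = 0.0119), Psmb8 -0.81 (adjusted p = 0.00702) and Oas1a 0.40 (adjusted p = 0.0376). It also passed Tap1 (0.64, adjusted p = 0.0162) and Ifih1 (0.47, adjusted p = 0.0247), while Tapbp no longer passed (0.46, adjusted p = 0.0538). The count of 10 in the whole model rested on few arrays: it was 1 without sh133 at 12 h, 2 without sh133 at 6 h and 5 without sh14 at 12 h. Over the 12 fits that left out 1 array, Samd9l was lost in 8 (adjusted p up to 0.29), Oas1a in 4, Irf9 and Tapbp in 3 each, and each other call in 1 or 2. Among these fits, those without sh133 at 22 h or at 1 h gave the same values and are 1 check.

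The model without a date term passed more genes. For both hairpin lines against scr it passed 9 members and 16.2% of all tested genes, and it added Bst2 (0.43), Gbp3 (0.39), Ifih1 (0.51), Psmb8 (0.50), Samd9l (0.66) and Tap1 (0.89) to Oas1a (1.28), Psmb9 (1.12) and Xaf1 (1.68). For Tap1 the adjusted p in that model was 0.000529. Because sh133 is the only line on both date strings, the date and the hairpin cannot be told apart for sh14 against scr except through it.

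**Figure D4:**
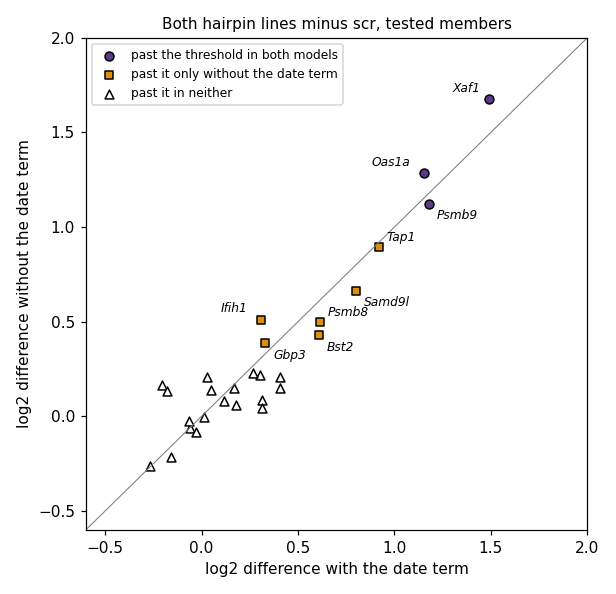
Log2 difference of both hairpin lines from scr for the 28 tested members, with the date term (horizontal axis) and without it (vertical axis); the line marks equality. Oas1a, Psmb9 and Xaf1 passed in both models, and Tap1, Samd9l, Psmb8, Bst2, Ifih1 and Gbp3 passed only without the term.

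Over time, 9 of the 28 members differed between 22 and 1 h across the 3 lines, 4 higher and 5 lower, where 18.1% of all tested genes passed, 8.74% as higher and 9.34% as lower. Usp18 rose (0.88 ± 0.14, adjusted p = 0.00182), with a 1 h signal below the array median in every line, so the size of its difference depends on a level near background. Ifit2 (0.42 ± 0.10, adjusted p = 0.0135), a relative of the translation inhibitor IFIT1, Ifi35 (0.38 ± 0.09, adjusted p = 0.018) and Tapbp (0.34 ± 0.10, adjusted p = 0.0372) rose as well. The second Tapbp probe set differed by only 0.12 ± 0.11. Psmb8 fell by 0.78 ± 0.15 (adjusted p = 0.00648), Irf1, a transcription factor of the interferon gamma response, by 0.58 ± 0.12 (adjusted p = 0.00927), Ifih1 by 0.48 ± 0.13 (adjusted p = 0.0313), B2m by 0.46 ± 0.13 (adjusted p = 0.0346) and Psmb9 by 0.36 ± 0.11 (adjusted p = 0.0448). Irf1 had 4.30, 4.41, 4.02 and 3.87 in sh14 at 1, 6, 12 and 22 h, 4.55, 4.43, 4.37 and 4.12 in sh133, and 4.77, 4.24, 4.22 and 3.89 in scr, so the 22 h array was the lowest of each line. The count was 3 without sh133 at 22 h or at 1 h, which gave the same values and are 1 check. B2m, Psmb9 and Tapbp were each lost in 10 of the 12 fits that left out 1 array and Ifih1 in 5, while Irf1 and Usp18 kept their calls in all 12. Marker genes moved over the same hours: of 8 tested erythroid genes 7 rose, with Alas2 (2.01), Slc4a1 (1.96) and Klf1 (1.25) among them, and Kit fell (-1.33), and of 8 tested mast cell and basophil genes 2 rose and 4 fell. The part of these lists in the time differences of the members was not tested.

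The change of Usp18 was present at the first later time. At 6 h against 1 h it was 1.05 (adjusted p = 0.00612) and at 12 h against 1 h it was 1.01 (adjusted p = 0.00447). At 6 h, Ifih1 (-0.63, adjusted p = 0.0388) and Psmb9 (-0.53, adjusted p = 0.0371) fell, which makes 3 members, 1 higher and 2 lower, where 4.86% of tested genes passed, 2.93% as higher and 1.93% as lower. At 12 h Usp18 alone passed, where 7.06% of tested genes did, 4.32% as higher.

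The lines parted in time for a few genes, without a call. Between 1 and 22 h, Samd9l moved by 0.35 in sh14, -0.71 in sh133 and -0.94 in scr, and Tap1 by 0.20 in sh14, -0.64 in sh133 and -0.87 in scr. Trim25 moved by 0.20 in sh14, -0.33 in sh133 and -0.75 in scr. The median over the 28 members was 0.16 in sh14, -0.11 in sh133 and -0.07 in scr, each from 1 array at each time. The slope test on log2 hours pooled sh14 with sh133 against scr, so it did not test a parting of sh14 from both other lines. It passed for 0 members, with 7 at an unadjusted p below 0.05 (limma). Of all tested genes 16.2% had such an unadjusted p, and 0.0316% passed after adjustment, 0.0237% as higher and 0.00789% as lower. Xaf1 had the largest slope difference, 0.22 ± 0.06 per doubling of hours (adjusted p = 0.162). Without sh133 at 22 h or at 1 h, which gave identical slopes and count as 1 check, Psmb8 (0.20), Tap1 (0.22) and Trim25 (0.22) passed, with 2.85% of all tested genes.

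**Figure D5:**
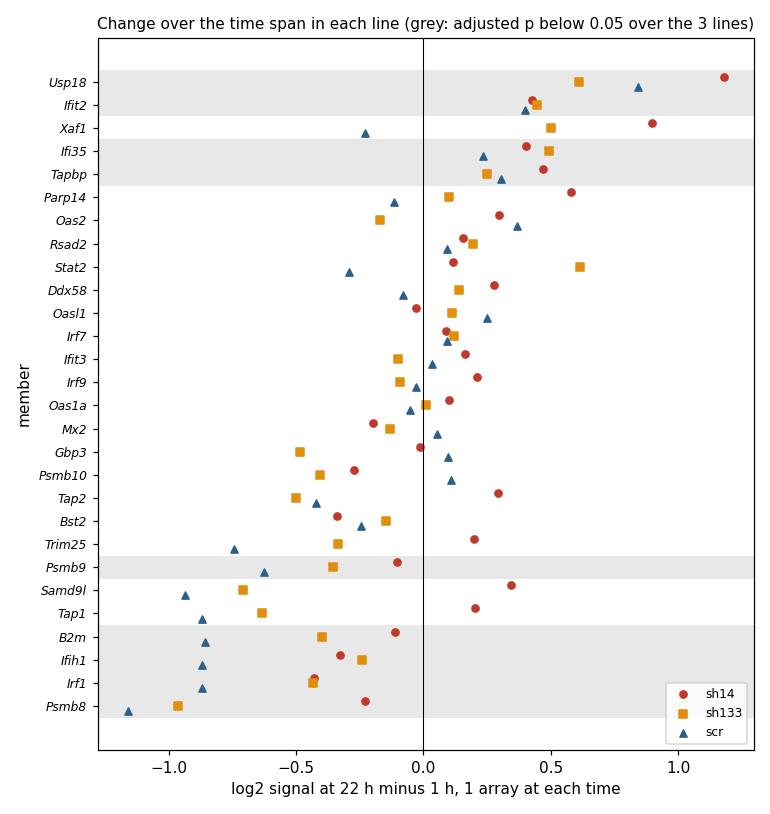
Log2 signal at 22 h minus that at 1 h (horizontal axis) for each of the 28 tested members (vertical axis), with 1 symbol per line from 1 array at each time; grey rows passed an adjusted p of 0.05 over the 3 lines. Usp18 lies at the top to the right of 0 in all 3 lines, Psmb8 lies at the bottom to the left in all 3, and for Samd9l and Tap1 sh14 is to the right of 0 and the other lines are to the left.

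Matched by time, the median of the 28 members in sh14 minus scr was 0.12 at 1 h, 0.20 at 6 h, 0.30 at 12 h and 0.41 at 22 h, and 18, 25, 25 and 24 members were above 0. In sh133 minus scr the medians were 0.02, 0.12, 0.04 and 0.11. These are raw differences of single arrays, without the date term. All genes tested had medians between -0.01 and 0.04 in sh14 minus scr.

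The remainder of the pathway is given from lists of genes beside the members. Of 6 interferon genes, 4 had a probe set and none reached the filter, so no difference in the ligands was tested. None of the 8 interferon receptor and kinase genes, 12 sensing and adaptor genes, 4 further interferon regulatory factors, 9 negative regulators, 5 class II genes and 14 constitutive proteasome subunits tested passed in the limma comparison of both hairpin lines with scr, and 5 of these 52 genes had an unadjusted p below 0.05. Over all tested genes 2.18% passed in this comparison, 1.14% as higher, and 14.7% had such an unadjusted p. Of 39 other interferon-stimulated genes 3 passed, all higher: Tdrd7 (1.30, adjusted p = 0.00522), Ifi27 (0.98, adjusted p = 0.0309) and Rnf213 (0.76, adjusted p = 0.0347). Of 9 further class I and peptide loading genes 2 passed, both higher: Tapbpl, a relative of tapasin (0.73, adjusted p = 0.0366), and the class I heavy chain gene H2-D1 (0.58, adjusted p = 0.0346). Class I heavy chain genes are close copies of each other, and their signals may be shared.

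In sh14 against sh133, 14.6% of all tested genes passed, 7.54% as higher and 7.11% as lower. There, 4 of those 9 class I genes rose: Erap1, the peptidase that trims class I peptides (1.33), Tapbpl (0.60), H2-K1 (0.52) and H2-D1 (0.42). Among the 39 other interferon-stimulated genes 8 rose, among them Ifi27 (1.59) and Rnf213 (1.19), and 1 fell, Ifitm2 (-2.44). Ifitm2, a membrane protein gene that blocks virus entry, differed from scr by -1.15 in sh14 and 1.29 in sh133. Of the 14 constitutive proteasome subunits 2 rose, Psma3 (0.47) and Psma6 (0.36), and Psma2 fell (-0.82). All 3 encode alpha subunits, which the immunoproteasome shares. Of the 8 receptor and kinase genes 1 rose, and of the 12 sensing and adaptor genes 1 rose and 1 fell. Of the 4 further interferon regulatory factors 1 rose, of the 9 negative regulators 1 fell, and of the 5 class II genes 1 rose. In sh133 against scr, where 4.91% of tested genes passed, 1 sensing and adaptor gene and 1 negative regulator rose. At 22 h against 1 h, 18.1% of all tested genes passed, 8.74% as higher and 9.34% as lower. Over this span 3 of the 8 receptor and kinase genes fell, Ifngr2 (-0.82), Ifngr1 (-0.60) and Ifnar2 (-0.48). Of the 12 sensing and adaptor genes, Mavs (1.12) and Ticam1 (0.39) rose and Traf6 (-0.80) fell, and of the 9 negative regulators Socs1 (-0.88) fell. Of the 39 other interferon-stimulated genes 5 rose and 4 fell, with Irgm2 (1.36) and Lgals9 (-1.24) farthest in each direction.

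Some marker genes of other blood cells moved with some of these differences. Over all tested genes 14.6% passed in sh14 against sh133. Against scr 3.06% passed in sh14, 4.91% in sh133 and 2.18% in both hairpin lines. Of 10 mast cell and basophil genes 9 had a probe set, and only Mcpt8 was at background (below the highest array median) on every array. The mean signal of this list was 3.38 to 3.78 in sh14, 2.48 to 2.95 in sh133 and 2.60 to 3.09 in scr. Of its 8 tested genes 5 rose in sh14 against sh133, 4 in sh14 against scr and 2 in both hairpin lines against scr. In sh133 against scr 1 fell. The megakaryocyte list, 7 of 8 with a probe set and Ppbp and Selp at background, had 2.97 to 3.47 in sh14, 2.81 to 3.39 in sh133 and 2.48 to 2.70 in scr. Of its 6 tested genes 0 passed in both hairpin lines against scr, and 1 rose in each line against scr. In sh14 against sh133, 1 rose and 1 fell. Of 8 tested erythroid genes, 2 fell in sh14 against sh133 and 2 in sh14 against scr. The part of these lists in the differences of Oas1a, Xaf1, Bst2 and the other members was not tested, and in bulk RNA a change in the number of cells of a type and a change of RNA per cell cannot be told apart. Macrophage and monocyte markers had 1.15 to 1.31 in sh14, 1.19 to 1.30 in sh133 and 1.13 to 1.23 in scr, with 9 of 11 at background on every array, Adgre1, Cd68 and Marco among them. Dendritic cell markers had 2.10 to 2.15 in sh14, 2.13 to 2.28 in sh133 and 2.05 to 2.18 in scr, with 4 of 7 at background, among them Siglech and Itgax. No tested gene of the B lymphocyte, T and NK lymphocyte, neutrophil, or stroma and endothelium lists passed in both hairpin lines against scr. In sh14 against sh133, 1 of 4 tested B lymphocyte genes rose and 1 of 3 tested dendritic cell genes fell.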

How the data were processed

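The deposited values are log2 probe set signals of 45101 probe sets on 12 arrays. Per the submitters' processing notes the authors used RMA, whose version is not given in the sources used here. It corrects for background and gives all arrays nearly the same distribution, so differences in total RNA cannot be read from these values. Values ran from 0.04 to 13.1. RNA was amplified before labelling, per the labels' protocols. The number of arrays limits the precision, and the median standard error over all tested genes was 0.15 for both hairpin lines against scr.

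Gene names came from the platform annotation, which gave 1 gene for 34958, several for 932 and none for 9211. Current symbols came through Entrez identifiers from RefSeq (GRCm38.p6) for 34754. Of the 35 genes found, 13 had several probe sets. All columns of sample values were used.

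Tests used limma 3.58.1 (R 4.3.3), and p-values were adjusted by the Benjamini-Hochberg method over 12673 genes. The model held line, time as a factor and the date string of the array title, with 5 residual degrees of freedom. Fits within a date string had fewer. Samples were grouped by the labelled hairpin and time. Alternatives were the model without the date term, the date as a random block, fits within a date string, other filters, the mean over probe sets, median centring, a variance prior with an intensity trend, and leaving out each array. The pipeline was tested on simulated data. Tables and figures were made with Python 3.11.15.

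The genes described and the pathway and marker lists were chosen with earlier results of these data known. Named in the text were the listed members, with full statistics for those past the threshold and values for others of each role, Plcg1, and called genes of the pathway lists. Tap1, Ifih1, Ifit1, Ddx58, Psmb10 and other members that did not pass were picked for description after their values were seen.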

Additional observations from a re-analysis of the deposited data

Results flagged for a closer look

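In 105 groups of 4 arrays, formed by each of the 35 genes in each line, 5 had 1 array far from the other 3, and chance alone sets about 1 in 20 such groups apart. Ifih1 in scr was 5.94 at 1 h, against 4.98 to 5.07 at the later times. Xaf1 in sh14 was 3.55 at 1 h, against 4.31 to 4.45. Usp18 in scr was 1.06 at 1 h, against 1.90 to 2.01. Psmb10 in sh14 was 6.96 at 22 h, against 7.23 to 7.28 at the earlier times. Tap2 in sh133 was 5.76 at 1 h, against 5.26 to 5.34. The arrays of a line differ in time, so a time course and an outlying array cannot be told apart with 1 array at each time.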

How the results depend on the processing

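Leaving out 1 array at a time, the number of members past the threshold ranged between 2 and 5 for both hairpin lines against scr, 2 and 6 for sh14 against scr, 1 and 5 for sh133 against scr, 1 and 13 for sh14 against sh133, 3 and 12 for 22 h, 1 and 5 for 6 h and 1 and 4 for 12 h against 1 h, and 0 and 3 for the slope difference. The 2 for sh14 against scr came without sh14 at 6 h, sh14 at 12 h, sh133 at 12 h or sh133 at 1 h, and the 1 for sh133 against scr came without sh133 at 22 h. Without the date term the counts were 9, 13, 5 and 15 for both lines, sh14 and sh133 against scr and sh14 against sh133, where 16.2%, 23.7%, 12.6% and 24.7% of all tested genes passed, and 3 for 12 h. With the date as a random block the count for both lines was 10, with 16.5% of all tested genes. For 12 h against 1 h it was 2 with the filter at the 60th percentile, 2 with the mean over probe sets and 3 with an intensity trend. The cause of these changes was not tested. In the comparison of both lines with scr, Oas1a and Psmb9 passed in all 19 alternatives (1.12 to 1.28, adjusted p up to 0.0258, and 1.04 to 1.30, adjusted p up to 0.0462), and Xaf1 in 10 of 19. No paired analysis was possible because replicate numbers within a line follow deposit order and pair nothing. Arrays of the same time were matched in every fit through the time factor instead. Low probe sets such as Irf7 and Usp18 lie near the array median, which limits how low a level can be read.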
